A study of Mus musculus with 4 samples.

Results

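Cajal-Retzius cells are among the earliest neurons of the cortex. They lie in its outermost layer, beneath the meninges, and secrete Reelin, an extracellular glycoprotein that directs the layering of the neurons that migrate towards it. Reelin binds the lipoprotein receptors VLDLR and ApoER2 on migrating neurons, which pass the signal on through the adaptor DAB1 and kinases of the Src family. The p53 relative p73, encoded by Trp73, marks most Cajal-Retzius cells and is needed for their survival, and the LIM-homeodomain factors LHX1 and LHX5 act in their specification.

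The cells described here are 192 of the 19237 cell barcodes in 4 single-cell libraries. A barcode was taken when it held at least 500 genes, at least 5 unique molecular identifiers (UMI, each standing for 1 captured RNA molecule) of Reln, at least 1 UMI of Trp73, Lhx5 or Lhx1, and none of Lhx6, Dlx1 and Dlx2, which mark GABAergic neurons from the ventral forebrain. Of the barcodes, 19015 passed the gene minimum. The libraries came from dissociated cortex of C57BL/6 mouse embryos at E16.5, 1 library per mouse, 2 from mice labelled HET and 2 from mice labelled COP1 KO. COP1 is the substrate receptor of a ubiquitin ligase that marks c-JUN and ETS-family transcription factors for destruction. The labels define neither HET nor which part of the gene was deleted and in which cells, and their sample titles abbreviate the second group as CKO. HET replicates 1 and 2 gave 53 and 45 Cajal-Retzius barcodes, and COP1 KO replicates 1 and 2 gave 46 and 48.

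The summed Cajal-Retzius counts were 435510 and 445753 UMI in HET and 370125 and 460029 UMI in COP1 KO, of deposited library totals between 28049007 and 28988265. Levels are given as CPM, the counts of a gene in such a sum scaled to a common total. A count of 0 allows up to 3 counts, which correspond to 6.63 to 8.25 CPM in the 4 sums, so levels under that are not told apart from 0 in a single library. Between 22 and 40 barcode sequences were shared by each pair of libraries, and none of these was a Cajal-Retzius barcode in both. COP1 KO replicate 1 differed most from the others in the class: over genes, chi-square per degree of freedom was 1.92 to 1.98 against each of the other libraries and 1.30 to 1.52 among those 3. No pair agreed within sampling noise, as 1 library deposited under 2 names would. The comparison cannot tell libraries of different mice from 2 libraries of 1 mouse. Each mouse was counted as 1 sample.

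Promoters of Reln and Trp73, which chose the cells, and of Nhlh2, the identity gene with the highest level, are shown for reference. RefSeq (GRCm38.p6) promoters, from 250 bases before to 50 after an annotated start, were matched for 22 of 29 marker and identity genes. Capitals mark every match, on either strand, to an E-box (CANNTG, bound by basic helix-loop-helix factors such as NHLH2), a homeodomain core (TAATTA), an EBF palindrome (CCCNNGGG) or an AP-1 site (TGANTCA). Reln spans chr5:22344656-22344955, minus strand. Trp73 has an upstream start at chr4:154139826-154140125 and an internal one at chr4:154097124-154097423, both minus strand, which 3′ reads cannot tell apart. Nhlh2 spans chr3:102009895-102010194, plus strand.
Reln: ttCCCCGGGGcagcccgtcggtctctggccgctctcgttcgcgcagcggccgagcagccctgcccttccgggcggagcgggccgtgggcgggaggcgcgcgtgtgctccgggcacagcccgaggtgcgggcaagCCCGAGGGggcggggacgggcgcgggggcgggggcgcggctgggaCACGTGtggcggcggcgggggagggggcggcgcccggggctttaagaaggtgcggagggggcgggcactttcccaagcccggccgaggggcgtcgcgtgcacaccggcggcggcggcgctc
Trp73 upstream start: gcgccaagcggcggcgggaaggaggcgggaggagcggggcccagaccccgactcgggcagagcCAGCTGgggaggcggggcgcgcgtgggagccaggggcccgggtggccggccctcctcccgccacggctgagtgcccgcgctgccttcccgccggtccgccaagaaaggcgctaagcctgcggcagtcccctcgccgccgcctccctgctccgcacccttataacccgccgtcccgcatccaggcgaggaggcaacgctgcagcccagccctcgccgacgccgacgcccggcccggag
Trp73 internal start: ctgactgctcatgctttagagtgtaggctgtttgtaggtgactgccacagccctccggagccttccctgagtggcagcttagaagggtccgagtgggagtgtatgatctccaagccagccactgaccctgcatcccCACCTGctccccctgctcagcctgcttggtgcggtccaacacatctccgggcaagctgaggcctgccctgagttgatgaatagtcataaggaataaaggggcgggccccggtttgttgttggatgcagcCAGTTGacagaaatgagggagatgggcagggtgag
Nhlh2: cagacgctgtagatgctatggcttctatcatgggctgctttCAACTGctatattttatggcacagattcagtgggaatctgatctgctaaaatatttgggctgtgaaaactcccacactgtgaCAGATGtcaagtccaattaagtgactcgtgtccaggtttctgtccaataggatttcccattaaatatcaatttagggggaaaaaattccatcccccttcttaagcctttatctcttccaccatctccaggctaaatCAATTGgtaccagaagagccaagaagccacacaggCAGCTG
An E-box stood in 18 of the 28 promoters of these genes, against 72.3% of all 32851 promoters of the table. The EBF palindrome stood in 4 of 28 against 13.7%, and the homeodomain core in 3 of 28 against 5.29%. The AP-1 letters were in 0 of 28, against 7.81% of all promoters. These are matches of letters, shown beside the share in all promoters, and no binding was measured.

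Reln had between 5 and 63 UMI per Cajal-Retzius barcode, with medians of 13 and 15 UMI in the HET libraries and 12 and 13 UMI in the COP1 KO libraries. The summed level was 2042 and 1744 CPM in HET and 1792 and 1905 CPM in COP1 KO, so the genotypes overlapped. Reln lies on chromosome 5, from 21884454 to 22344705 (GRCm38.p6). Trp73 (chromosome 4, 154056249 to 154139875) was at 252 and 310.4 CPM in HET and 189.7 and 287 CPM in COP1 KO, again overlapping. Lhx5 (chromosome 5, 120431886 to 120441457) was at 673 and 605 CPM in HET and 588 and 553 CPM in COP1 KO. Both HET values of Lhx5 were above both COP1 KO values. Lhx1 (chromosome 11, 84517975 to 84525534) was at 199 and 192 CPM in HET and 217 and 133 CPM in COP1 KO. Because these 4 genes chose the barcodes, their levels are given as a description, with no test.

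Most of the barcodes held more than 1 of the factors. All of Trp73, Lhx5 and Lhx1 were seen in 113 of 192 (58.9%), Trp73 with Lhx5 in a further 38, Lhx5 with Lhx1 in 12, and Lhx5 without the others in 19. Trp73 with Lhx1 was seen in 4, Trp73 without the others in 3 and Lhx1 without the others in 3. Trp73 was detected in 158 and missing from 34. The 12 barcodes with 5 UMI of Reln had a median depth of 5352 UMI, and 100% of them held a molecule of Nhlh2. The 17 barcodes with 4 UMI of Reln, just outside, had a median of 5913 UMI, and 94.1% held Nhlh2. Of 146 barcodes with a factor and 0 UMI of Reln, 26.0% held Nhlh2 and 61.0% held Neurod6, a factor of excitatory neurons of the neocortex. A further 27 barcodes met the Reln minimum but carried Lhx6, Dlx1 or Dlx2, and 16 of those also carried Trp73, Lhx5 or Lhx1.

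The identity of the class was checked with 25 genes that the rule did not use. For comparison, the same 4 libraries held 9061 excitatory neurons, taken as barcodes with at least 500 genes, at least 3 UMI of Neurod6 and none of the 7 genes of the rule. Of the 25 genes, 22 were higher in Cajal-Retzius cells than in excitatory neurons in every library, and 20 by more than 4-fold on the mean of the 4 libraries. These differences are descriptions, since the barcodes were chosen by their expression and the list was chosen with earlier results of these data known. The share of all genes that were higher in the same way was not counted, so the list has no background beside it. Depth was higher in Cajal-Retzius barcodes, with medians of 7254, 9282, 7529.5 and 9577 UMI in the 4 libraries against 5880.5, 6230, 5089.5 and 5947 UMI in excitatory neurons.

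Many of the identity genes encode transcription factors. Nhlh2, a basic helix-loop-helix factor (chromosome 3, 102010111 to 102015492), was at 1701 and 1563 CPM in HET and 1394 and 1355 CPM in COP1 KO, against at most 25.6 CPM in excitatory neurons. At least 95.8% of Cajal-Retzius barcodes in every library held a molecule of it, and at most 10.2% of excitatory neurons did. Zic2, a zinc-finger factor of the medial forebrain, was at 357 and 340.0 CPM in HET and 426 and 402 CPM in COP1 KO, with at most 5.83 CPM in excitatory neurons. Its relative Zic1 was at 217 to 294 CPM against 13.5 to 21.2 CPM. Emx2, a homeobox factor of the medial pallium and cortical hem, was at 422 to 493 CPM against 29.3 to 35.8 CPM. Nr2f2, which encodes the nuclear receptor COUP-TFII, was at 572 to 794 CPM against 78.1 to 86.0 CPM. Ebf3, of the EBF family, was at 121 to 137 CPM against 0.670 to 1.01 CPM, Barhl2 at 118 to 177 CPM against 0.576 to 2.16 CPM, and Mab21l1 at 130.4 to 164 CPM against 0.0744 to 0.434 CPM. Lhx9, a LIM-homeodomain factor, was at 52.2 to 119 CPM against 10.3 to 19.6 CPM. Tbr1, shared by Cajal-Retzius cells and deep-layer neurons, differed less, at 473 to 649.8 CPM against 220.3 to 287 CPM.

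Genes of calcium handling, secretion and transport were also high. Calb2, which encodes the calcium buffer calretinin, was at 841 and 972 CPM in HET and 737 and 937 CPM in COP1 KO, against 19.6 to 30.4 CPM in excitatory neurons. Ndnf, which encodes a secreted neurotrophic factor, was at 154 to 256 CPM against 0.0718 to 0.217 CPM. Ndnf was seen in 52.2% to 66.7% of Cajal-Retzius barcodes per library and in at most 0.0929% of excitatory neurons. Cacna2d2, an auxiliary subunit of voltage-gated calcium channels, was at 320.5 to 401 CPM against 1.22 to 3.16 CPM. The non-coding host gene Snhg11 was at 863 to 1145 CPM against 12.4 to 29.9 CPM. Car10, a carbonic-anhydrase-related protein, was at 71.5 to 164 CPM and lowest in COP1 KO replicate 1.

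**Figure D1:**
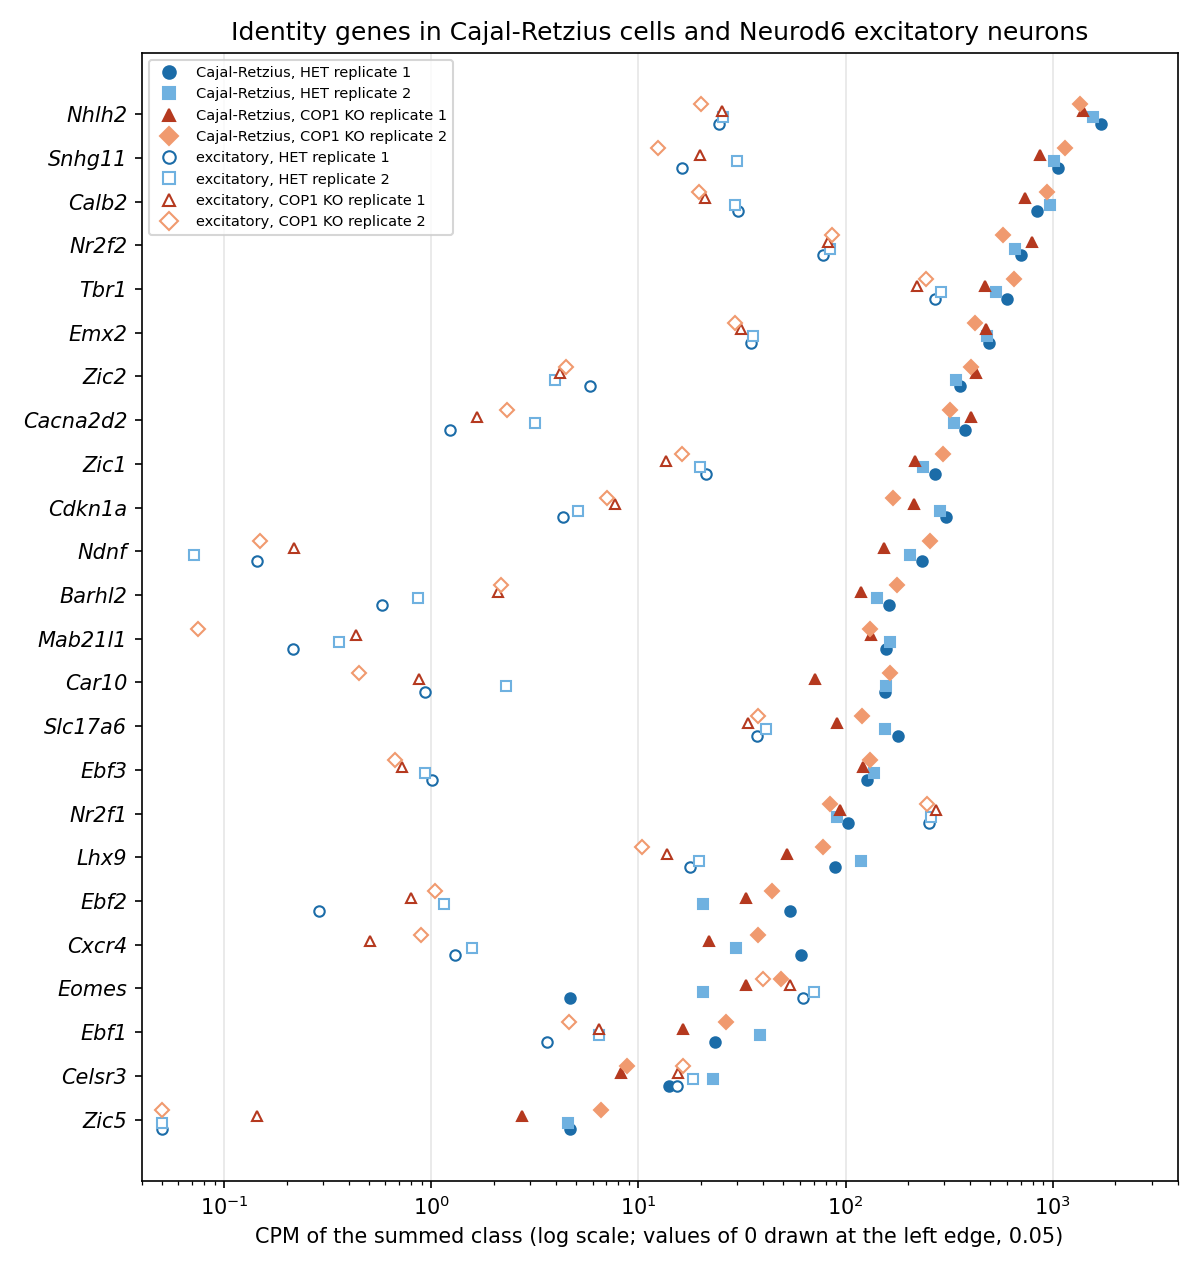
Levels of 24 of the 25 identity genes, in CPM on a log axis, in the summed Cajal-Retzius barcodes (filled symbols) and in the summed Neurod6 excitatory neurons (open symbols) of each library. Filled symbols lie to the right of open symbols for 21 of those shown, while Nr2f1, Eomes and Celsr3 do not follow this order.

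Identity genes below a mean of 50 CPM included Ebf2 (20.5 to 53.7 CPM), Cxcr4 (22.0 to 60.7 CPM), Ebf1 (up to 38.8 CPM), Eomes (4.67 to 48.6 CPM), Celsr3 (8.25 to 22.8 CPM) and Zic5 (2.75 to 6.63 CPM). Cxcr4 is the receptor of the chemokine CXCL12, which the meninges release and which holds Cajal-Retzius cells at the surface. The exceptions to the signature were Nr2f1, at 84.0 to 103 CPM against 246 to 272 CPM in excitatory neurons, Eomes and Celsr3. Some genes outside the list, named after their values were seen, had the same pattern. Pcp4, a calmodulin-binding peptide, was at 1808 to 2147 CPM against 129.9 to 193 CPM, Tmem163 at 437 to 493 CPM against 8.21 to 9.97 CPM, and Gdf5, a BMP-family ligand, at 165 to 206 CPM against 0.862 to 1.79 CPM. Lhx1os, on the opposite strand of Lhx1, was at 399 to 442 CPM against at most 0.432 CPM. The sources do not say whether counting used the strand, so its reads cannot be told apart from those of Lhx1.

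The class was not uniform with respect to Trp73. In the 158 barcodes with Trp73, Nhlh2 was at 1600 CPM, Emx2 at 506 CPM and Ndnf at 227 CPM. In the 34 without Trp73, which were shallower (median 6406.5 against 8976 UMI), they were at 912, 225.9 and 139 CPM. That order held in each of the 4 libraries for all 3 genes, though the values without Trp73 rest on 210, 52 and 32 counts over all libraries. The barcodes without Trp73 were spread unequally, with 8 and 5 in the HET and 12 and 9 in the COP1 KO libraries. Other identity genes went the other way. Lhx9 was at 79.9 CPM with Trp73 and 122 CPM without, an order that held in every library. Snhg11 (992 and 1268 CPM), Zic2 (370 and 439 CPM) and Mab21l1 (140 and 182 CPM) were also higher without Trp73, but not in every library. Calb2 was at 846 CPM with Trp73 and 1086 CPM without, an order that COP1 KO replicate 2 did not share (939 and 929 CPM). Foxp2, a factor of deep-layer neurons, was at 4.82 CPM with Trp73 (7 counts) and 148 CPM without (34 counts), but at 0 in the barcodes without Trp73 of HET replicate 2. Eomes, a factor of intermediate progenitors, had 21 counts with Trp73 and 24 without, and all of the latter lay in COP1 KO: it was at 134 and 194 CPM without Trp73 in COP1 KO and at 0 in both HET libraries. Trp73 was part of the rule and a barcode can miss it by depth alone, so these values are a description over all libraries.

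Markers of other cells were mostly low. The 13 genes of excitatory neurons were all lower than in the excitatory barcodes, with summed levels of 334 and 315 CPM in HET and 745 and 473 CPM in COP1 KO, against 6295 to 7026 CPM in excitatory neurons. The highest were Bcl11b, Neurod6 and Tle4. The 14 genes of GABAergic neurons summed to 57.7 to 99.5 CPM, led by Sst (9.34 to 50.2 CPM), Maf and Prox1. The transmitter enzymes Gad1 and Gad2 reached at most 4.67 and 9.13 CPM. Of the 13 genes of radial glia and progenitors, Dbi (206 to 386 CPM), Vim (111 to 137 CPM) and Pax6 (66.2 to 129 CPM) were highest, while Sox2 reached 6.85 CPM. Genes of the oligodendrocyte lineage summed to at most 14.0 CPM, with Olig2 and Cspg4 among the highest, and Sox10 and Gpr17 were at 0. Genes of meningeal fibroblasts summed to at most 17.7 CPM, with Igf2, Col1a1 and Col1a2 the highest, and 6 of 11 were at 0. The vessel list summed to 54.8 to 91.1 CPM, nearly all of it Rgs5 (45.6 to 79.4 CPM), and 4 of its 10 genes were at 0. Hemoglobin gene Hbb-bs was at 109.8 to 126 CPM, below the 240.3 to 1263 CPM of excitatory neurons. The choroid plexus gene Ttr was at 13.7 to 44.4 CPM.

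Genes of macrophages and microglia stood apart by library. Their 11 genes summed to 236 and 2.28 CPM in HET and 638 and 33.2 CPM in COP1 KO, with Fcer1g, C1qa and C1qc the highest. A single barcode held nearly all of it in each of the high libraries. In HET replicate 1 it carried 97 UMI of 10 macrophage markers among 7148 UMI, and in COP1 KO replicate 1 it carried 225 among 13151. Both also held Pf4, a chemokine gene of border macrophages, with 70 and 152 UMI. Their doublet scores from Scrublet were 0.0667 and 0.100, below the value of 0.25 above which a barcode was treated as a likely doublet. The remaining barcodes of the class had at most 2 UMI of these markers each.

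The share of Cajal-Retzius barcodes addresses whether the genotypes differed in the frequency of the class. It was 1.16% in HET replicate 1 (53 of 4587, exact 95% interval 0.867 to 1.51) and 1.03% in HET replicate 2 (45 of 4375, 0.751 to 1.37). In COP1 KO it was 0.872% in replicate 1 (46 of 5274, 0.639 to 1.16) and 1.0% in replicate 2 (48 of 4779, 0.741 to 1.33). Both HET shares were above both COP1 KO shares, but the counting intervals of all 4 overlapped. The means were 1.09% ± 0.0897 (SD, n = 2) in HET and 0.938% ± 0.0935 (SD, n = 2) in COP1 KO, a log2 ratio of −0.22. The exact two-sided permutation p was 0.333, the smallest that 2 libraries against 2 can give, so this test cannot call a difference of any size. After each barcode was thinned to 2000 UMI, the shares were 0.392% and 0.343% in the HET libraries, against 0.255% and 0.316% in the COP1 KO libraries. Barcodes under 2000 UMI were left out of this, numbering 1 and 0 in the HET libraries but 177 and 34 in the COP1 KO libraries. These are shares of captured barcodes, not of cells in the tissue.

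**Figure D2:**
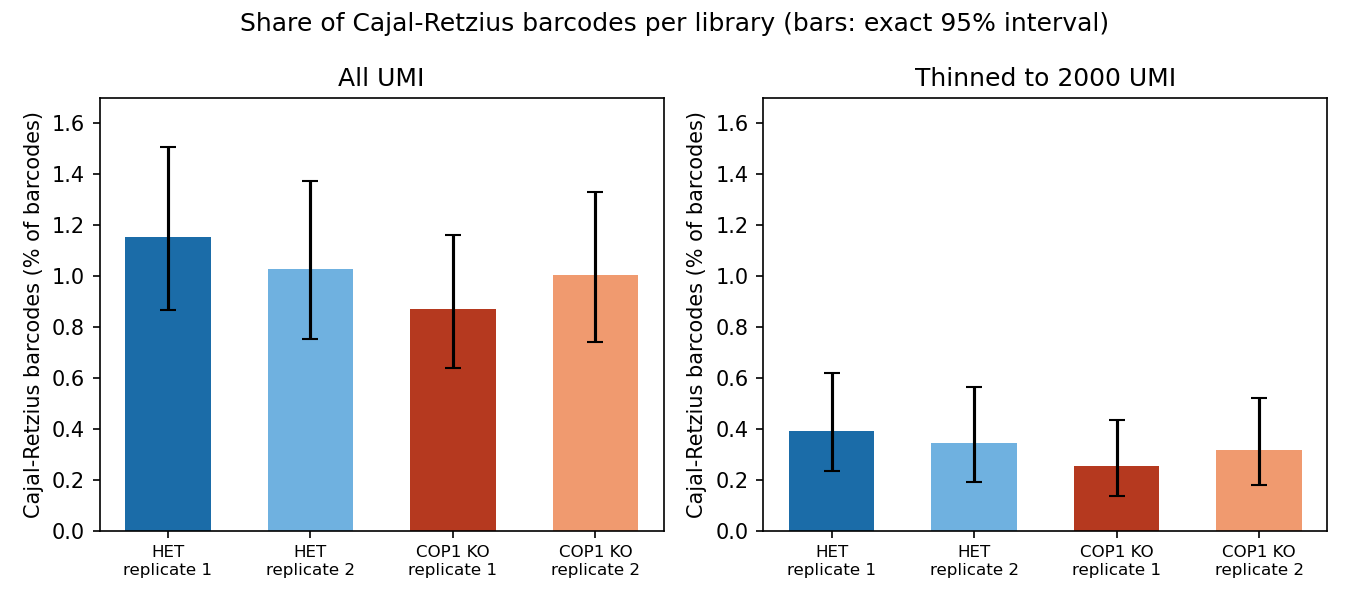
Share of Cajal-Retzius barcodes among barcodes with at least 500 genes, in percent, for each library, with all UMI (left) and after thinning to 2000 UMI (right). Bars are single libraries and whiskers are exact 95% intervals; the intervals of all 4 libraries overlap in both panels.

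The second comparison asked which genes differed between the genotypes within the class. Of 6967 genes tested on sums per library, Penk was lower and Sox4 was higher in COP1 KO (edgeR quasi-likelihood test, Benjamini-Hochberg adjusted p under 0.05). That is 0.0287% of the genes tested, with 0.0144% in each direction. At an unadjusted p under 0.05 there were 399 genes, or 5.73%. Both COP1 KO libraries were above both HET libraries for 15.6% of the genes and below both for 20%. None of the 25 identity genes passed in either direction. A limit of the comparison is that 2 mice stand for each genotype, and the labels give neither litter nor batch.

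Penk encodes proenkephalin, the precursor of the enkephalin opioid peptides (chromosome 4, 4133536 to 4138815). It was measured at 63.1 and 66.2 CPM in HET libraries and at 5.5 and 2.21 CPM in COP1 KO. The groups did not overlap, and the fitted log2 change was −4.0 (SE 0.548, edgeR adjusted p = 0.0133). Penk passed the filter on low counts through the HET libraries alone. A gene with such COP1 KO counts could be tested only if it was higher in HET, so the lack of overlap is no separate evidence. Both COP1 KO values rest on 2 and 1 UMI and lie under the level that a count of 0 allows, so the size of the change is poorly fixed. Over the summed counts, 56 UMI in HET and 3 in COP1 KO, Penk was 17.6-fold higher in HET, with an exact 95% interval of 5.72 to 87.8 that covers counting error only. That interval takes each UMI as independent, although few barcodes held them. Penk was also chosen by its p on the same counts, so the ratio is no separate evidence of a fall. Excitatory neurons of the same libraries had 0.744 to 2.02 CPM, overlapping between the genotypes. Few barcodes carried the Penk signal. In HET replicate 1 it was found in 4 of 53 barcodes with 27 UMI together, and in HET replicate 2 in 6 of 45 with 29 UMI. In COP1 KO it was found in 2 and 1 barcodes with 1 UMI each. Without its single highest barcode, Penk would still be at 37.7 and 32.6 CPM in the HET libraries. Of the 13 barcodes with Penk, 11 held Trp73, 12 held Lhx5 and 4 held Neurod6. In HET replicate 1, however, the barcodes with 11 and 9 of its 27 Penk UMI held no Trp73. The one with 9 held no Lhx5 either. Fewer Penk-bearing cells and less Penk per cell cannot be told apart at this depth. The call was lost with DESeq2 (log2 change −4.09, DESeq2 adjusted p = 0.25) and without the filter on low counts (edgeR adjusted p = 0.697). It was also lost with barcodes of 3 or more UMI of Reln (edgeR adjusted p = 0.0621). Leaving out every barcode with any Neurod6 ended the call too (log2 change −3.83, edgeR adjusted p = 0.506). Without COP1 KO replicate 1 or 2 the call was lost as well, at log2 changes of −4.69 and −3.43.

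Sox4 encodes an HMG-box transcription factor of young neurons (chromosome 13, 28948919 to 28953699). It was at 679.8 and 874 CPM in HET and at 1322 and 1370.4 CPM in COP1 KO. Both COP1 KO libraries were above both HET libraries, and the log2 change was 0.82 (SE 0.128, edgeR adjusted p = 0.0328). Unlike Penk, Sox4 was widespread: 46, 43, 43 and 47 barcodes of the 4 libraries held it. The median level per barcode was 418 and 736 CPM in HET and 889 and 861 CPM in COP1 KO. The highest barcode held 13.5% of the Sox4 counts in COP1 KO replicate 1 and between 6.19% and 9.14% in the other libraries. Levels in excitatory neurons were far higher, at 3807 and 4401 CPM in HET and 5305 and 4481 CPM in COP1 KO. When the 7 barcodes with 3 or more UMI of Neurod6 were left out, 0, 1, 2 and 4 in the libraries in order, the log2 change was 0.65 and the call was lost (edgeR adjusted p = 0.576). It was also lost without COP1 KO replicate 1 or 2 (edgeR adjusted p = 0.232 and 0.780), with library totals in place of TMM and without the filter on low counts (edgeR adjusted p = 0.0718 and 0.846), and with both other minimums of Reln, 3 and 10 UMI (edgeR adjusted p = 0.316 and 0.130).

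The Sox4 promoter is shown as that of the gene called higher, at chr13:28953650-28953949, minus strand, with capitals as above. It held 1 E-box and none of the other motifs, and no promoter of Penk was matched.
Sox4: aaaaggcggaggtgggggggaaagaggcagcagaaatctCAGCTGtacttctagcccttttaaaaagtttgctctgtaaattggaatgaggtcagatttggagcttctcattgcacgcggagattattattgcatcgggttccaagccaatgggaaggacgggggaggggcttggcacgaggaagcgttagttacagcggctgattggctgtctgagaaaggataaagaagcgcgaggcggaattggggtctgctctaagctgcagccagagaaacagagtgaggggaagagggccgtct

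**Figure D3:**
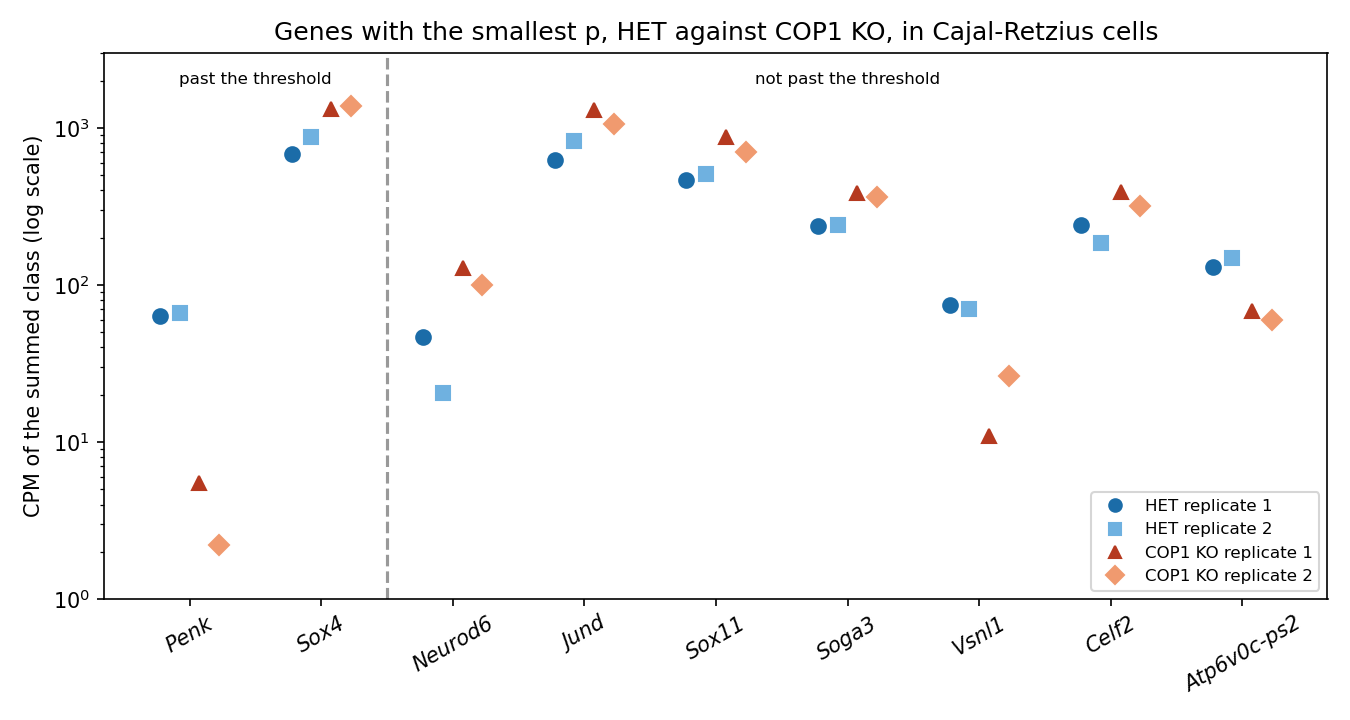
Level in the summed Cajal-Retzius barcodes, in CPM on a log axis, of 9 of the 10 genes with the smallest p in the comparison of genotypes, with 1 symbol per library. Penk and Sox4 (left of the dashed line) passed the threshold; the genotypes do not overlap for any of the 9 genes, which were chosen by that p.

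The genes that followed in the order of p missed the threshold in the main test. Neurod6, the factor that marks neocortical excitatory neurons, was at 46.7 and 20.5 CPM in HET and at 129 and 99.5 CPM in COP1 KO (log2 change 1.78, SE 0.323, edgeR adjusted p = 0.117). In COP1 KO its counts were concentrated: the highest barcode held 24 of 47 UMI in replicate 1 and 18 of 45 in replicate 2, against 2 of 20 and 3 of 9 in HET. Neurod6 did pass without the barcodes of 3 or more macrophage-marker UMI (log2 change 1.79, edgeR adjusted p = 0.0294), an alternative added once the data had been seen. Over the alternatives its log2 change ran from 0.13, without barcodes of 3 or more Neurod6 UMI, to 2.47, without HET replicate 1. Jund, which encodes a JUN-family member of AP-1, was at 626 and 822 CPM against 1308 and 1065 CPM (log2 change 0.74). Sox11, a relative of Sox4 in the same family, was at 469.5 and 511 CPM against 877 and 698 CPM (0.71). Soga3 (0.68) and the RNA-binding factor Celf2 (0.76) had positive values as well. Vsnl1, a neuronal calcium sensor, was at 74.8 and 70.7 CPM against 11 and 26.5 CPM (−1.86). Its highest barcode held 12 of 32 and 11 of 31 UMI in the HET libraries, against 1 of 4 and 3 of 12 in COP1 KO. With at least 10 UMI of Reln the log2 change of Vsnl1 was −0.76. Atp6v0c-ps2, a pseudogene whose reads may belong to its parent gene, had a log2 change of −1.10. Adjusted p for these 6 genes lay between 0.177 and 0.195 in edgeR. They were chosen by their small p, so their lack of overlap is no separate evidence.

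**Figure D4:**
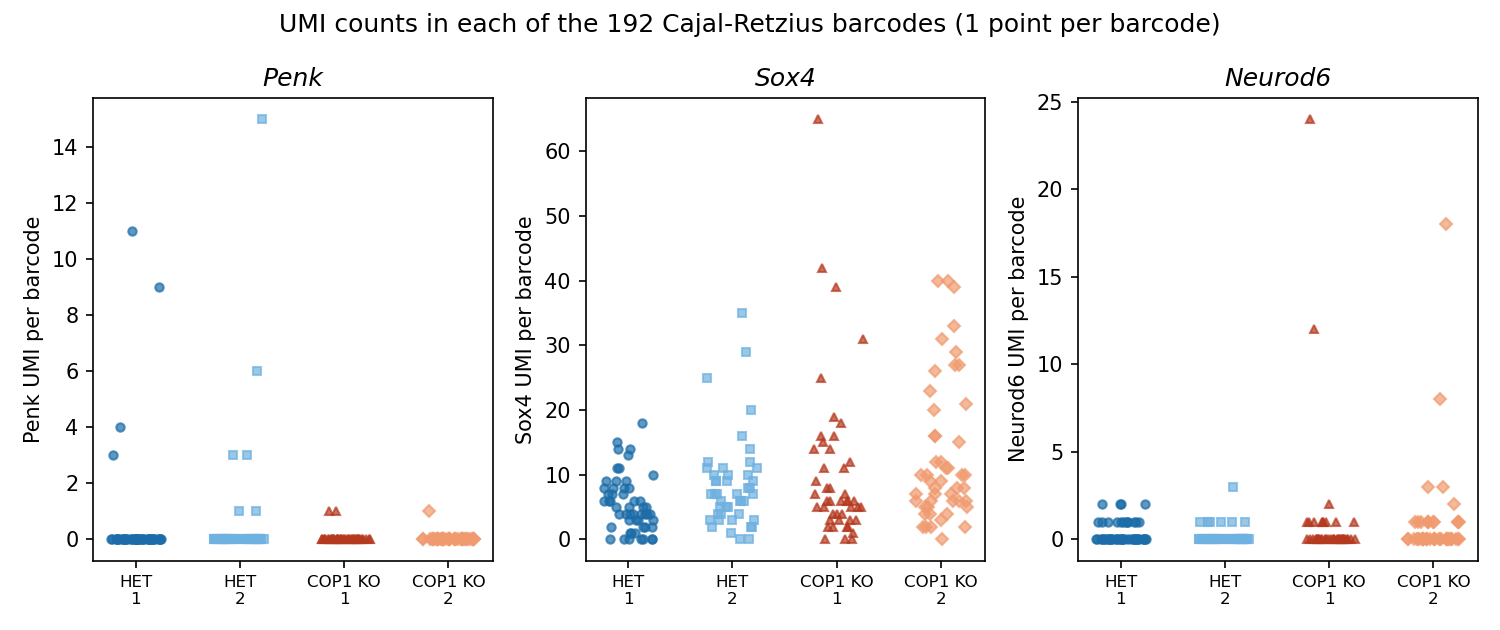
UMI counts of Penk, Sox4 and Neurod6 in every Cajal-Retzius barcode, 1 point per barcode, by library (horizontal jitter is random). Penk is at 3 or more UMI in 4 barcodes of each HET library and in none of COP1 KO, Sox4 is spread over most barcodes, and the highest Neurod6 counts are 24 and 18 UMI in the COP1 KO libraries.

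None of the excitatory-neuron genes passed the main test, though Neurod6 did in 1 alternative that left out macrophage-marker barcodes (edgeR adjusted p = 0.0294). Of the 13 genes, 9 could be tested, 8 had positive log2 changes and 0 were called, against 0.0144% called higher among all genes. An unadjusted p under 0.05 was reached by 5 of them, and the same number had both COP1 KO libraries above both HET libraries (15.6% among all genes). Their median log2 change was 1.08, beside 0.00 over all genes tested. The rule for barcodes did not use these genes, nor did it leave out barcodes that hold them. Neurod2, a close relative of Neurod6, was at 25.7 and 27.4 CPM in HET and 99.0 and 46.4 CPM in COP1 KO. Its log2 change of 1.43 was 0.73 without barcodes of 3 or more Neurod6 UMI and 0.44 without barcodes of any Neurod6. Bcl11b, a factor of deep-layer projection neurons, was at 56.1 and 52.5 CPM against 143 and 88.4 CPM, and Mef2c at 30.4 and 34.2 CPM against 102 and 37.6 CPM. COP1 KO replicate 1 was the highest library for each of these genes. Sox4, Sox11 and Celf2 are themselves at least 4-fold higher in excitatory neurons than in Cajal-Retzius cells on the mean of the libraries. With every barcode that held any Neurod6 left out, 37 and 38 HET and 34 and 32 COP1 KO barcodes remained, Sox4 was at a log2 change of 0.57 (edgeR adjusted p = 0.892) and 0 genes were called (edgeR; 305 at an unadjusted p under 0.05). Beyond leaving out these barcodes, the part of excitatory-neuron RNA in the Sox4, Sox11 and Celf2 values was not tested.

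**Figure D5:**
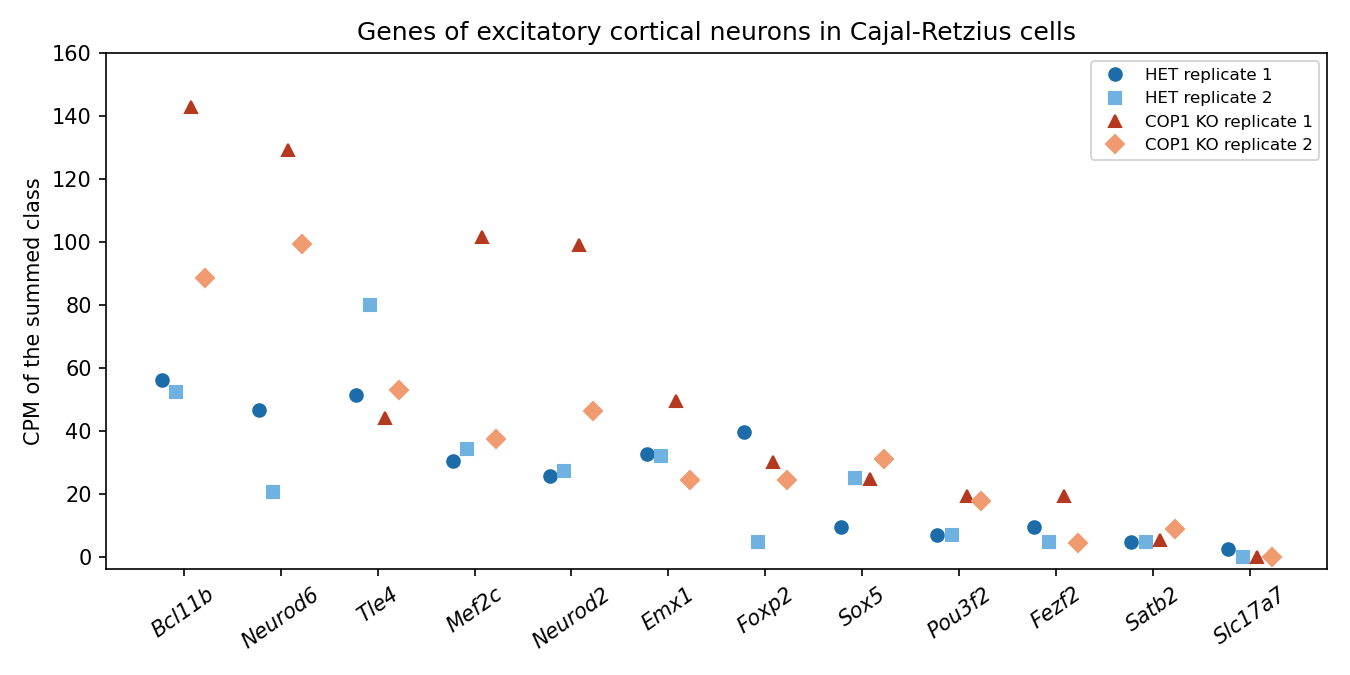
Level in the summed Cajal-Retzius barcodes, in CPM, of 12 of the 13 genes of excitatory cortical neurons, with 1 symbol per library. COP1 KO replicate 1 is highest for Bcl11b, Neurod6, Mef2c and Neurod2, and none of the genes passed the main test.

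Among the identity genes, 23 passed the filter on low counts, 8 with positive and 15 with negative log2 changes, and their median was −0.08. Those with both COP1 KO libraries below both HET libraries numbered 7, and 2 were above, where 20% and 15.6% of all genes tested were below and above. The smallest p among them belonged to Cdkn1a, the cell-cycle inhibitor p21 and a target of p53-family factors. It was at 306 and 285 CPM in HET and 214 and 170.2 CPM in COP1 KO, and its log2 change, −0.60 (SE 0.161), did not pass (edgeR adjusted p = 0.599). Slc17a6, the vesicular glutamate transporter VGLUT2, was at 179.9 and 155 CPM against 90.7 and 119 CPM (−0.63, edgeR adjusted p = 0.804). Among the identity genes with the narrowest estimates, the log2 change was −0.22 for Nhlh2 (SE 0.104), −0.02 for Snhg11 (SE 0.127), −0.08 for Calb2 (SE 0.132), −0.09 for Emx2 (SE 0.136), 0.02 for Tbr1 (SE 0.147), 0.28 for Zic2 (SE 0.135) and 0.04 for Cacna2d2 (SE 0.151). A missed threshold with 2 mice per group does not show that levels were equal.

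The Reelin pathway list held 20 genes, of which 15 passed the filter and 0 were called. As only 0.0287% of all genes tested were called, 0 calls in this list or in those below say little about the list. The receptor genes Vldlr and Lrp8 and the adaptor gene Dab1 were below the 50 CPM used for naming genes and were chosen after their values were seen, for their role. Dab1 was at 7.01 to 46.7 CPM against 299 to 311 CPM in excitatory neurons, Vldlr at 21.0 to 33.2 CPM against 50.7 to 54.2 CPM, and Lrp8, which encodes ApoER2, at 23.4 to 35.7 CPM against 60.6 to 69.4 CPM. Fyn, a kinase that phosphorylates DAB1, was at 93.4 and 93.6 CPM in HET and 179 and 135 CPM in COP1 KO (log2 change 0.76, SE 0.226, edgeR adjusted p = 0.704). Src was at 68.7 to 119 CPM against 51.5 to 57.2 CPM in excitatory neurons, and Rap1a at 98.1 to 132 CPM against 84.5 to 91.0 CPM. The adaptor gene Crk was at 59.3 to 108 CPM against 75.8 to 87.1 CPM, and the integrin gene Itgb1 at 66.0 to 81.8 CPM against 43.0 to 64.0 CPM. Genes of the receiving side thus lay on both sides of their level in excitatory neurons. The dynein regulators Pafah1b1, at 183 to 269 CPM, and Ndel1, at 88.8 to 106 CPM, and the microtubule protein gene Dcx, at 146 to 159 CPM, overlapped between genotypes. App and Aplp2, of the amyloid precursor family, were at 385 to 568 CPM and 297 to 397 CPM.

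Of 25 measured guidance and adhesion genes, 14 passed the filter and 0 were called, beside 0.0287% of all genes tested. Cxcl12, the ligand of CXCR4, was at 467 and 470.1 CPM in HET and 377 and 774 CPM in COP1 KO, against 30.8 to 35.4 CPM in excitatory neurons. It was detected in 29, 23, 23 and 23 barcodes of the 4 libraries. Unc5b, a netrin receptor, was at 70.7 to 109.5 CPM against 1.08 to 1.94 CPM, and Plxnd1, a semaphorin receptor, at 46.4 to 74.8 CPM against 6.92 to 7.95 CPM. Efnb2 (33.0 to 63.9 CPM), an ephrin ligand, and Robo1 (46.4 to 68.7 CPM), a Slit receptor, were lower than in excitatory neurons. Epha3 was at 107 to 153 CPM against 159.9 to 191 CPM, Robo2 at 70.7 to 119 CPM against 84.2 to 87.8 CPM, and the netrin receptor gene Dcc at 82.2 to 115 CPM against 62.7 to 71.4 CPM.

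Genes of the p53 family and of cell survival, 19 in all, gave 12 that passed the filter, 6 in each direction, and 0 called. Trp63 was at 0 in all 4 sums, 3 counts over which correspond to 1.78 CPM. Trp53 was at 119 and 84.4 CPM in HET and 96.2 and 68.5 CPM in COP1 KO. The targets Mdm2 (107 to 133 CPM), Ccng1 (72.9 to 96.2 CPM), Sesn1 (81.8 to 129 CPM) and the pro-apoptotic Bbc3 (99.5 to 126 CPM) did not pass. Ccng1 and Sesn1 were 3.26-fold and 3.21-fold higher than in excitatory neurons on the mean of 4 libraries, and Cdkn1a 40.3-fold. Bax (495 to 557 CPM), which permeabilises mitochondria, its antagonist Bcl2l1 (124 to 179 CPM) and the neurotrophin receptor gene Ntrk2 (119 to 159.7 CPM) were without a call.

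Transmitter and excitability genes, 32 in all, gave 20 that passed the filter and 0 called. Slc17a6 was at 90.7 to 179.9 CPM, while Slc17a7, which encodes VGLUT1, was listed with 1 count in HET replicate 1 and 0 in the other libraries. Cacna2d1 was at 203 to 258 CPM against 56.2 to 73.8 CPM in excitatory neurons. The glutamate receptor genes Gria2 (140.2 to 189.7 CPM) and Grin2b (86.7 to 118 CPM) and the vesicle gene Syt4 (105 to 151 CPM) were lower than in excitatory neurons. Gria1 (63.9 to 82.5 CPM), the sodium channel gene Scn3a (51.4 to 102 CPM), Syt1 (88.0 to 112 CPM), Snap25 (107 to 190.1 CPM) and the growth-cone gene Stmn2 (3138 to 3574 CPM) were also measured without a call.

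The targeted gene is listed under its older symbol, Rfwd2 (chromosome 1, 159232156 to 159354872). It was at 25.7 and 22.8 CPM in HET and at 22.0 and 37.6 CPM in COP1 KO (log2 change 0.35, SE 0.452, edgeR adjusted p = 0.945). Reads at the 3′ end can still be counted where another stretch of the gene is deleted, and the labels do not say which was, so this value does not check the genotype. Of its 11 measured partners and subunits, the gene itself included, 6 passed the filter and 0 were called, namely Rfwd2, Ddb1 (log2 change −0.07), Cul4a (0.13), Rbx1 (−0.10), Dda1 (−0.11) and Cops5 (0.06). Of 7 substrates, Jun and Cebpa passed the filter and 0 were called, beside 0.0287% of all genes tested. Jun was at 222 and 251 CPM in HET and 219.9 and 272 CPM in COP1 KO (log2 change 0.09, SE 0.157), and Cebpa, a C/EBP factor more abundant here than in excitatory neurons, at 65.4 and 31.9 CPM against 35.7 and 30.9 CPM (−0.52, SE 0.399). The ETS genes Etv1, Etv4, Etv5, Ets1 and Ets2 did not reach the filter. RNA levels say nothing of the amount of a protein that the ligase would mark.

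Genes of an injury or AP-1 type response, 20 in all, gave 4 that passed the filter and 0 called, beside 0.0287% of all genes tested. Lgals1, which encodes galectin-1, was at 42.0 and 11.4 CPM in HET and 41.2 and 8.84 CPM in COP1 KO (log2 change −0.14, SE 0.657). Its high values lay in the libraries with a macrophage-marker barcode, and the highest barcode held 10 of 18 and 12 of 15 of the counts there. Vim (log2 change −0.02, SE 0.216), Ndrg1 (0.32, SE 0.453) and Rcan1 (−0.31, SE 0.210) were likewise not called. Feedback genes of ERK signalling had 3 of 12 past the filter, immediate-early and stress genes 7 of 15, mitochondrial genes 6 of 12 and genes of cholesterol synthesis 16 of 20, with 0 called in each list. The mitochondrial list summed to 9524 and 10527 CPM in HET and 11152 and 10764 CPM in COP1 KO.

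The last comparison asked whether the genotype effect in Cajal-Retzius cells differed from that in excitatory neurons of the same libraries, with library as a block and a class-by-genotype term. Of 14073 genes, 6 passed (edgeR adjusted p under 0.05), or 0.0426%, 4 with a more positive effect in Cajal-Retzius cells (0.0284%) and 2 with a more negative one (0.0142%). At an unadjusted p under 0.05 there were 668 genes, or 4.75%. Sox4 was among the former: its change exceeded that in excitatory neurons (log2 change 0.29 there) by 0.56 (SE 0.105, edgeR adjusted p = 0.00232). For Sox11 the difference was 0.56 (SE 0.118, edgeR adjusted p = 0.0159) and for Celf2 0.77 (SE 0.156, edgeR adjusted p = 0.0104). With the 7 barcodes of 3 or more Neurod6 UMI left out, none of the 3 passed: the difference was 0.38 for Sox4 (edgeR adjusted p = 0.468), 0.24 for Sox11 and 0.39 for Celf2 (edgeR adjusted p = 1 for both). Leaving out 1 library ended the Sox11 call in all 4 cases (edgeR adjusted p 0.0579 to 0.179). The Sox4 call was lost without HET replicate 1 or COP1 KO replicate 2, and the Celf2 call without HET replicate 2 or COP1 KO replicate 1 (edgeR adjusted p 0.147 to 0.675).

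Rspo3, which encodes R-spondin 3, an enhancer of WNT signalling released by the cortical hem (chromosome 10, 29453106 to 29535867), had the larger change in excitatory neurons. In Cajal-Retzius cells it was at 306 and 269 CPM in HET and 329.9 and 228 CPM in COP1 KO, overlapping, with a log2 change of −0.03. In excitatory neurons it was at 89.1 and 90.1 CPM in HET and 169 and 144 CPM in COP1 KO, a log2 change of 0.84. The effects differed by −0.85 (SE 0.153, edgeR adjusted p = 0.00133), a call lost without HET replicate 1 or COP1 KO replicate 2 (edgeR adjusted p = 0.169 and 0.187). Rspo3 was spread over 30, 26, 21 and 28 Cajal-Retzius barcodes of the 4 libraries. The other members of the 6 were carried by few barcodes. Nts, the neurotensin precursor, had a difference of −3.59 (SE 0.617, edgeR adjusted p = 0.000906), but 34 of its 40 UMI in HET replicate 1 came from 1 barcode, and the other libraries held 2, 1 and 3 UMI. Without HET replicate 1 the Nts difference was −0.74 (edgeR adjusted p = 1), and the call was also lost without COP1 KO replicate 1 or 2 (edgeR adjusted p = 0.271 and 0.0539). Eomes had a difference of 2.25 (SE 0.475, edgeR adjusted p = 0.0159) on 2, 9, 12 and 22 UMI, and its call was lost without HET replicate 1 or COP1 KO replicate 2 (edgeR adjusted p = 0.576 and 0.889).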

How the data were processed

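Single cortical cells of 4 mice were measured with the 10x Chromium 3′ v2 kit, per the labels' protocols, and the submitters' processing notes name GSNAP and GRCm38 (mm10). The deposited values are UMI counts per gene and barcode, whole numbers with no normalization by their values. Which counter, annotation and barcode-calling rule were used the sources used here do not give. Of 36528 rows, 3065 carry only a number (1.69% of counts) and were left out of library sizes and tests, as were 21 rows, of 10 or more counts, identical to another in every barcode (1.18%), leaving 33442.

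Counts of the chosen barcodes were summed per library and compared in R 4.3.3 by the quasi-likelihood F-test of edgeR 4.0.16 after TMM scaling and filterByExpr, calling genes at a Benjamini-Hochberg adjusted p under 0.05, 2 HET against 2 COP1 KO sums, with no covariate. Each SE was obtained as the size of the log2 change divided by √F. The 7 genes of the rule were kept in the library sizes and not tested. The class-by-genotype term used both classes of each library, with library as a block, and left out the rule genes and Neurod6, which chose the excitatory neurons. Shares were compared with an exact permutation test, with Clopper-Pearson 95% intervals, and intervals and limits at a count of 0 cover counting error only. Scrublet's own threshold marked 13 barcodes, too few to use, so a score of 0.25 was set instead and tried as an alternative. DESeq2 1.42.0 was another. On simulated counts the genotype test, over 6954 genes, recovered 74% of 100 genes changed by a log2 of 1 and 99% of 100 changed by a log2 of 2, with 9 false calls. The class-by-genotype test, over 14075 genes, recovered 44% and 98%, with 7 false calls. Every simulated gene of the class had the same spread between libraries (coefficient of variation 10.8%), and only well-counted genes were changed. Excitatory sums were simulated with no library effect shared with the class. The recovered shares therefore do not cover genes carried by few barcodes, such as Penk. Other alternatives were library totals in place of TMM, no filter, other UMI minimums, barcodes with Neurod6 or macrophage markers left out, thinning to 2000 UMI and each library left out.

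Members, markers and gene lists were chosen with earlier results of these data known. Genes were named as follows: the 4 markers; list members at 50 CPM or more, at most 12 a list, and all identity genes; the 10 smallest p where fewer than 6 genes passed; every COP1 ligase, substrate and injury list member past the filter; the 3 highest members of each marker list of other cells; and up to 6 genes past the class-by-genotype test. Some genes that this rule names are not reported here. Replicates are numbered in accession order. The edgeR p-values of the genotype test rest on the spread between libraries, 2 mice per group, moderated over genes. That spread includes the sampling of barcodes. For the class-by-genotype term it is the spread of the difference between classes, with library as a block. Promoters and coordinates are from RefSeq, GRCm38.p6.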

Additional observations from a re-analysis of the deposited data

Results flagged for a closer look

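The genotype effect differed between Cajal-Retzius cells and excitatory neurons of the same libraries, by the class-by-genotype term (edgeR quasi-likelihood test, adjusted p under 0.05), for 6 genes, and the values here are log2 differences, Cajal-Retzius minus excitatory. Sox4 differed by 0.56, with higher levels in both COP1 KO sums than in both HET sums of Cajal-Retzius cells. Sox11 differed by 0.56 and Celf2 by 0.77. Without the barcodes of 3 or more Neurod6 UMI, Sox4 differed by 0.38, Sox11 by 0.24 and Celf2 by 0.39, and none passed (edgeR adjusted p = 0.468, 1 and 1). Rspo3 differed by −0.85, with a log2 change of 0.84 in excitatory neurons and −0.03 in Cajal-Retzius cells. Nts differed by −3.59, with 34 of 40 UMI of HET replicate 1 in 1 barcode, and Eomes by 2.25 on 2 to 22 UMI per library.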

How the results depend on the processing

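The main count of 2 genes called between genotypes was 1 with library totals in place of TMM (Penk) and 1 with DESeq2 (Sox4). It stayed at 2 with at least 2 UMI summed over Trp73, Lhx5 and Lhx1, and without likely doublets. It was 3 without the macrophage-marker barcodes, an alternative added once the data had been seen, where Neurod6 passed too (edgeR adjusted p = 0.0294). It was 0 without the filter on low counts, 0 with at least 3 and 0 with at least 10 UMI of Reln, 1 (Penk) without barcodes of 3 or more Neurod6 UMI, and 0 without barcodes of any Neurod6 UMI, which was added once the data had been seen. The 4 edgeR fits with 0 calls in this list gave 497, 393, 339 and 305 genes at an unadjusted p under 0.05. Leaving out 1 library gave between 0 (without either COP1 KO replicate; 391 and 458 at an unadjusted p under 0.05) and 27 genes (without HET replicate 2; 26 without HET replicate 1), where the lone sample is assumed to vary like the other group. The log2 changes of Penk and Sox4 kept their sign in all alternatives run, from −4.69 to −3.43 and from 0.57 to 1.03, but passed the threshold in 7 of 13 and 6 of 14 of them (edgeR or DESeq2 adjusted p 0.000311 to 0.780 and 3.95e-06 to 0.892). Penk was not tested with at least 10 UMI of Reln, where it missed the filter. The class-by-genotype count of 6 was 13 with at least 3 UMI of Reln, 13 without likely doublets and 13 without the macrophage-marker barcodes, the last chosen after seeing the data, and 3 (without COP1 KO replicate 2) to 8 (without HET replicate 2) with 1 library left out. Of the 6 calls, 1 and 4 were kept when HET replicates 1 and 2 were left out in turn, and 3 and 1 for the COP1 KO replicates. With at least 10 UMI of Reln the differences of Nts and Eomes reversed, to 0.75 and −0.21; the cause was not tested. The log2 ratio of shares stayed between −0.36 and −0.12. No paired analysis was possible because the labels give no replicate numbers. Few barcodes per library limit all of these values: genes under about 10 CPM rest on a handful of counts.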
